A study of Mus musculus with 6 samples.

Results

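The 10 genes described here encode the core proteins that make microRNAs and use them to repress messenger RNAs: Dicer1, Drosha, Dgcr8, the Argonautes Ago1, Ago2, Ago3 and Ago4, and the GW182 proteins Tnrc6a, Tnrc6b and Tnrc6c. They were taken by gene symbol, and all 10 were found among the 55401 mouse gene identifiers of the count table and passed the filter on low counts that left 14661 genes for testing. RNA was sequenced from ADC106, a mouse angiosarcoma line, which models a malignant tumour of the cells that line vessels. One group of 3 libraries came from cells given an NC mimic (genotype label WT), and the other group of 3 from cells given a miR-497 mimic (genotype label miR-497 overexpression). A mimic is a short synthetic duplex that is taken up by Argonaute, and both groups received one, at 12.5 nM, with RNA extracted at day 3. Untransfected cells were not analysed here, so every value compares 2 mimics in a single line.

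In animal cells a microRNA is first cut out of a long primary transcript in the nucleus by the Microprocessor, which is the RNase III enzyme Drosha with its RNA-binding partner Dgcr8. After export, Dicer, encoded by Dicer1, cuts the hairpin to a duplex, and an Argonaute protein keeps a single strand as its guide. GW182 proteins bind Argonaute and bring in the deadenylation and decapping enzymes that silence the target. A mimic enters at the Argonaute step and needs neither Drosha nor Dicer. Deletion of Dicer1 in mice with the aP2-Cre transgene is known to give angiosarcoma. The labels do not describe the Dicer1 alleles of ADC106, and counts summed over a gene cannot show a deleted exon.

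The mature strands of miR-497 are shown because the sites searched for in the members follow from them. RefSeq gives the mouse miR-497a strands on GRCm38.p6 at chr11:70234730-70234751 (5p) and chr11:70234770-70234790 (3p), plus strand. The 5p strands of miR-15a, miR-16 and miR-195a, which share that seed, are set beside them, with the seed (bases 2 to 8) in capitals. The labels do not give the sequence of the mimic.
miR-497a-5p: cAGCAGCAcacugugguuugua
miR-15a-5p: uAGCAGCAcauaaugguuugug
miR-16-5p: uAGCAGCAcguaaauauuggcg
miR-195a-5p: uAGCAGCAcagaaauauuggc
miR-497a-3p: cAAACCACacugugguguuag

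Matches to the 5p seed in the longest annotated 3′ UTR are TGCTGCT (7mer-m8), the same followed by A (8mer), or GCTGCTA (7mer-A1), read on the transcript strand only. At least 1 was found in Ago1, Ago2, Ago3, Ago4 and Tnrc6b, with 17 sites in all, and none in the other 5 members. Shorter 6mer matches were not counted as sites. Of those 5 members, Dicer1 had 4 of them, Dgcr8 2, Tnrc6a and Tnrc6c 1 each, and Drosha 0. The only 8mer lay in Tnrc6b. The sites shown next belong to members whose expression changed, in both directions, and capitals mark the match. They are both sites of Ago1 and only a part of the 5 of Tnrc6b and the 3 of Ago2. Positions are GRCm38, from the GENCODE M21 annotation.
Tnrc6b 8mer, chr15:80931446-80931473, plus strand: ctctgtgactTGCTGCTAttgaggacaa
Tnrc6b 7mer-m8, chr15:80930511-80930538, plus strand: tccaagaagcTGCTGCTcacctctgtgc
Ago1 7mer-m8, chr4:126437936-126437963, minus strand: tggggaatttTGCTGCTcccatttgctt
Ago1 7mer-A1, chr4:126435890-126435917, minus strand: aggtctacaagGCTGCTAagtgttgtag
Ago2 7mer-m8, chr15:73105300-73105327, minus strand: ttctcttgtgTGCTGCTctgtgctctgt
Ago2 7mer-A1, chr15:73106367-73106394, minus strand: cagggcgtatgGCTGCTAggtctccaca

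With miR-497, all 3 GW182 genes and Ago1 fell, Ago2 and Dgcr8 rose slightly, and Drosha, Dicer1, Ago3 and Ago4 did not pass the test. The changes were small: the largest was the fall of Tnrc6c by 29.4%. Of the 10 members, 4 were lower and 2 higher by the quasi-likelihood test of edgeR, at 0.05 after Benjamini-Hochberg adjustment over all genes tested. Among all tested genes 26.0% were lower, 23.8% were higher and 49.8% were called in either direction. At 6 of 10, the members' share lies near that background, so the count says nothing particular about them. The 3 miR-497 values lay below the 3 NC values in 4 members and above them in 2. Over all tested genes, 29.6% had such a gap below, 27.8% above and 57.4% either. Absolute log2 fold changes of the 6 called members had a median of 0.29, against 0.50 for all called genes. The median over the 10 members was -0.13, and over all tested genes -0.02.

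**Figure D1:**
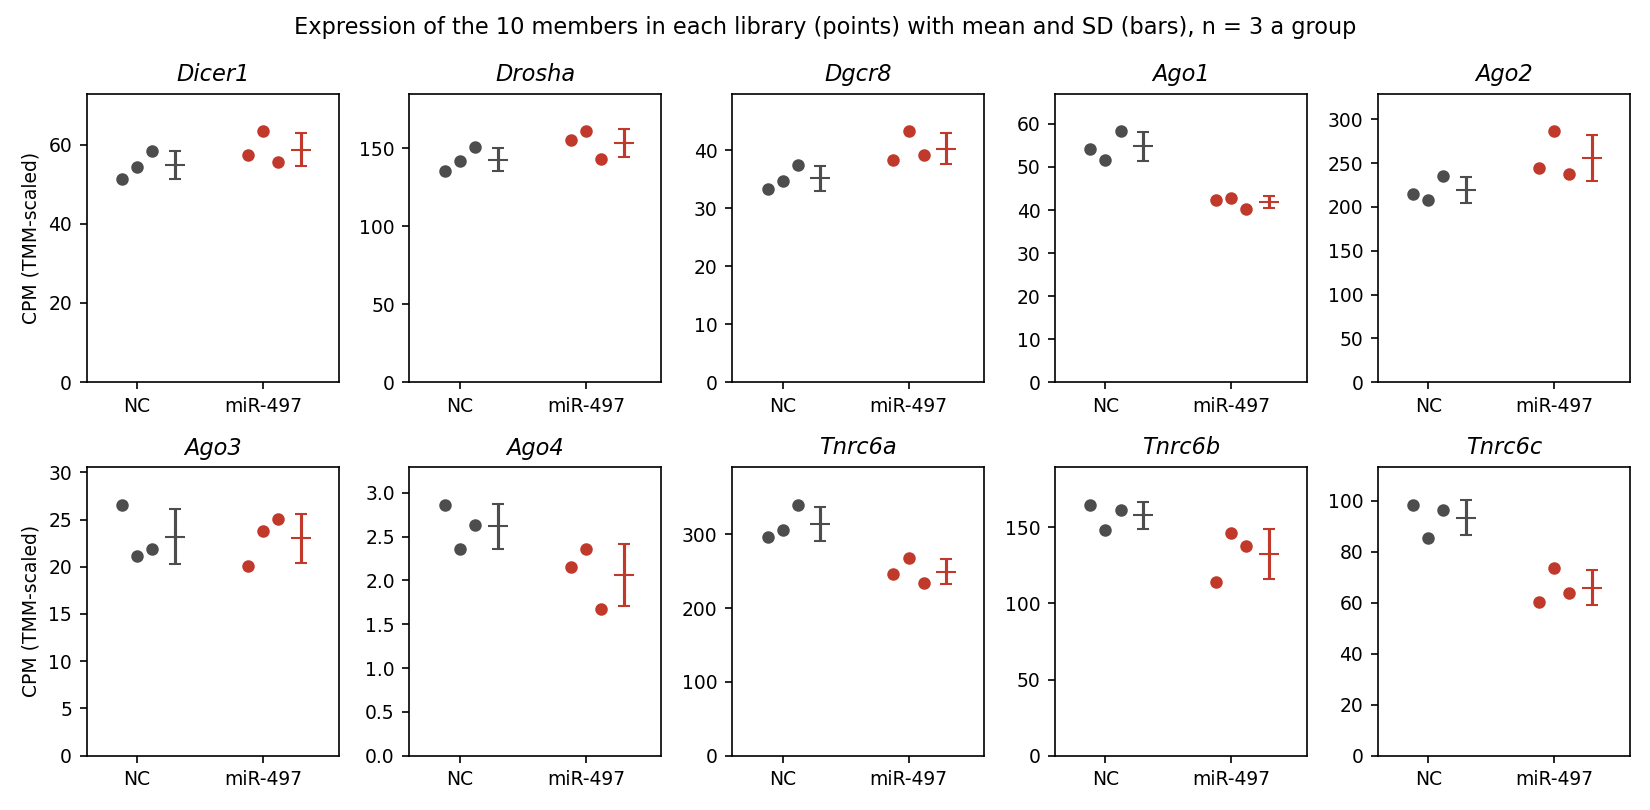
Expression of each of the 10 members in CPM (counts in 1000000 counts of the library, scaled by TMM; y axis from 0, its top set for each gene), with 1 point per library and the mean ± SD beside it (n = 3). Tnrc6a, Tnrc6b, Tnrc6c and Ago1 have every miR-497 point below every NC point, Ago2 and Dgcr8 have every one above, and the other 4 genes overlap.

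The totals ran from 25777676 to 36159499 counts per library, and each member but Ago4 had at least 505 counts in every library. Mitochondrially encoded genes took 2.03% to 2.15% of all counts with NC and 2.94% to 3.77% with miR-497; their part in the members' values was not tested. Of the 9 endothelial markers checked, all were detected, and their summed level was 8567 to 9286 CPM with NC and 8349 to 8812 CPM with miR-497. Single markers differed within that sum: Pecam1 stood at 3554 ± 155 CPM with NC and 2471 ± 126 CPM with miR-497, and Emcn at 373 ± 3.80 and 764 ± 50.2 CPM (SD, n = 3). Summed markers of leukocytes were at 9.34 to 9.71 CPM with NC and 15.7 to 21.0 CPM with miR-497, most of it Cd68 (8.26 and 17.5 CPM), with Ptprc and Adgre1 near 0. Those of epithelium reached at most 0.784 CPM. Of the 5 fibroblast markers, Lum was at 0 and Dcn near 0. The sum of all 5 was 153 to 165 CPM with NC and 179.9 to 216 CPM with miR-497. Among them Col1a1 went from 61.7 to 110.4 CPM, Pdgfra from 43.4 to 46.6 CPM and Pdgfrb from 52.8 to 40.8 CPM. The part of these markers in the members' values was not tested. The labels do not say whether the libraries of a group came from separate cultures, so p-values measure the spread between these libraries, which may be technical.

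Drosha (ENSMUSG00000022191, chr15:12824815-12935291, plus strand), the nuclear enzyme that makes the first cut, was measured at 136, 142 and 151 CPM in NC libraries 1 to 3. With miR-497 it stood at 155, 161 and 143 CPM. The groups overlapped, since the lowest miR-497 library lay under the highest NC library. Its log2 fold change of 0.10 (95% interval -0.02 to 0.23, SE 0.0581) did not pass the test (edgeR adjusted p = 0.150). It passed under upper-quartile scaling, at 0.15 (edgeR adjusted p = 0.0234).

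Dgcr8 (ENSMUSG00000022718, chr16:18253948-18289246, minus strand) holds the primary transcript for Drosha. Its levels were 33.3, 34.6 and 37.5 CPM with NC and 38.4, 43.3 and 39.2 CPM with miR-497. No miR-497 library overlapped the NC range, although the nearest values, 37.5 and 38.4 CPM, lay close together. The rise was 14.7%, or 0.20 on the log2 scale (edgeR adjusted p = 0.0379, SE 0.0754). This call ended when NC library 1 (edgeR adjusted p = 0.146), NC library 2 (0.106) or miR-497 library 2 (0.197) was left out, and without a filter on low counts (0.0571). Exons of Trmt2a on the opposite strand cover 10.7% of the exon bases of Dgcr8, and the strand setting of the counting is not given in the sources used here. Trmt2a is listed at 0 counts in all 6 libraries. The annotation release behind the counts is not given, so this 0 does not show that reads from Trmt2a were absent. Exact words of 50 bases shared with other genes made up 15.0% of those in Dgcr8 transcripts, which is the highest share among the 10 members. Words were matched on both strands, so this share takes in the overlap with Trmt2a and is not separate from it.

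Per kilobase of exon, Drosha stood well above its partner. The ratio of Drosha to Dgcr8 was 5.28, 5.30 and 5.20 with NC and 5.25, 4.82 and 4.75 with miR-497, so the ranges of the 2 groups overlapped. Messenger RNA levels are compared here per length of all annotated exons, and they do not measure protein. Per kilobase of the longest transcript, Drosha was at 31.2 and Dgcr8 at 8.14 CPM with NC, and at 33.5 and 9.33 CPM with miR-497. The size of the ratio therefore depends on the length used.

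Dicer1 (ENSMUSG00000041415, chr12:104687742-104751952, minus strand), the enzyme that trims the exported hairpin, was at 51.4, 54.4 and 58.5 CPM with NC. The miR-497 libraries held 57.3, 63.4 and 55.5 CPM and overlapped them. Its log2 fold change was 0.10 (95% interval -0.05 to 0.25, SE 0.0723), which did not pass the test (edgeR adjusted p = 0.260). All 15 alternative settings also left it uncalled, with log2 fold changes between 0.04 and 0.16. Dicer1 transcripts were thus present in all 6 libraries, at 1439 to 2014 counts. The ratio of Drosha to Dicer1 per kilobase of exon was 7.36 ± 0.0957 with NC and 7.37 ± 0.254 with miR-497 (SD, n = 3), a difference far smaller than the spread. The size of this ratio also depends on the length used, while the comparison of the groups does not.

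Within the Argonaute family the 2 most abundant members moved apart. Ago1 fell by 23.6% and Ago2 rose by 16.7%, while neither Ago3 nor Ago4 passed the test. Ago1, Ago3 and Ago4 are neighbours on the minus strand of chromosome 4, and Ago2 is on chromosome 15. All 4 Argonautes carry guide RNAs, and Ago2 is the one known for cutting targets that pair along the whole guide.

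Ago1 (ENSMUSG00000041530, chr4:126435012-126468583) was at 54.2, 51.7 and 58.3 CPM with NC and at 42.3, 42.8 and 40.3 CPM with miR-497. Every miR-497 library lay below every NC library, with a gap wider than the range within either group. The log2 fold change was -0.39 (edgeR adjusted p = 0.000178, SE 0.0696). Ago1 stayed past the threshold under all 15 alternatives, between -0.43 and -0.33. Its 3′ UTR of 4491 bases is where the pair of Ago1 sites printed above lies. Of 950 tested genes with a 3′ UTR of 0.8 to 1.2 times that length, 62.2% had a site.

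Ago2 (ENSMUSG00000036698, chr15:73095844-73184935) was the most abundant Argonaute, at 214, 208 and 236 CPM with NC and 244, 286 and 237 CPM with miR-497. The groups did not overlap, but the highest NC value and the lowest miR-497 value, 236 and 237 CPM, nearly met, and miR-497 library 2 stood above the other two. The log2 fold change was 0.22 (edgeR adjusted p = 0.0137, SE 0.0697). Without miR-497 library 2 it was 0.13 (edgeR adjusted p = 0.113), without NC library 2 it was 0.19 (0.0857), and without NC library 1 it was 0.20 (0.0526). The rise was therefore past the threshold with all 6 libraries and with 3 of the 6 sets of 5. Ago2 carries 3 sites in a 3′ UTR of 11064 bases. Of 48 genes with a 3′ UTR of like length, 85.4% had a site.

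Ago3 (ENSMUSG00000028842, chr4:126331704-126429556) ran from 21.2 to 26.6 CPM with NC and from 20.1 to 25.1 CPM with miR-497. The ranges overlapped almost fully, and the log2 fold change of -0.01 (95% interval -0.23 to 0.21, SE 0.104, edgeR adjusted p = 0.945) had no stable sign across scalings. Its longest 3′ UTR, of 12742 bases, has 5 sites, of which the last pair share bases; the shortest annotated one, of 196 bases, has none. Ago4 (ENSMUSG00000042500, chr4:126489541-126533472) was the rarest member, with 51 to 95 counts per library, or 2.36 to 2.87 CPM with NC and 1.67 to 2.36 CPM with miR-497. Its log2 fold change of -0.34 was no smaller than that of Tnrc6a, but the SE was 0.258 and the 95% interval ran from -0.89 to 0.20 (edgeR adjusted p = 0.289). At this depth the interval of Ago4 takes in both no change and a fall as large as that of Ago1.

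**Figure D2:**
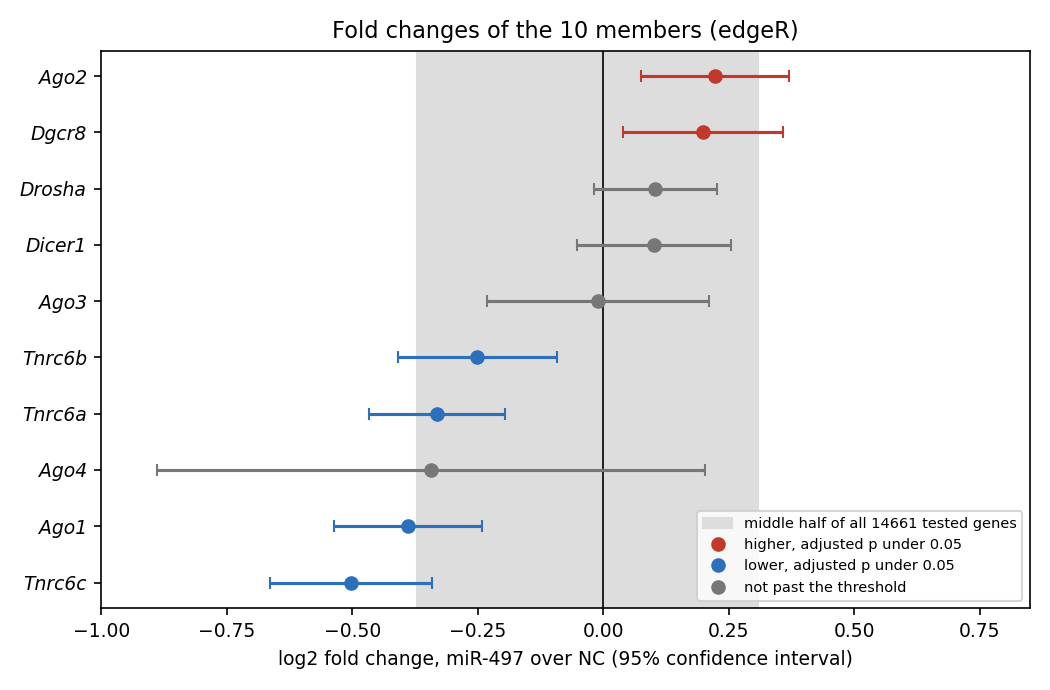
Log2 fold change of each member, miR-497 over NC, with its 95% confidence interval from edgeR; grey shading spans the middle 50% of all 14661 tested genes, from -0.37 to 0.31. Tnrc6c and Ago1 lie to the left of the shading, the intervals of Ago2 and Dgcr8 lie right of 0, and Ago4 has the widest interval.

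The make-up of the Argonaute pool followed from these changes. Ago1 supplied 27.9% ± 0.0651 of the summed Argonaute expression per kilobase of exon with NC and 20.6% ± 1.25 with miR-497 (SD, n = 3). For Ago2 the shares were 64.7% ± 0.868 and 72.7% ± 1.47. Ago3 held 5.81% ± 0.796 and 5.56% ± 0.749, and Ago4 held 1.56% ± 0.139 and 1.18% ± 0.140. The ratio of Ago2 to Ago1 was 2.29, 2.33 and 2.34 with NC and 3.34, 3.87 and 3.405 with miR-497. It varied little within NC, and the lowest miR-497 ratio was well above the highest NC ratio; since it joins members already described, no p is given. The sum over the family was 24.2 ± 1.44 CPM per kilobase with NC and 25.1 ± 2.09 with miR-497, a difference smaller than the SDs. Ago1 and Ago2 shares did not overlap between the groups, whereas the sums did.

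Reads of the Argonaute paralogs could in principle be confused. Their coding sequences were 72.6% to 76.4% identical in pairwise alignment, with Ago1 and Ago2 the closest pair. Exact 50-base words shared with any other gene made up 1.53% of Ago1, 3.46% of Ago2, 0.731% of Ago3 and 0.290% of Ago4.

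All 3 GW182 genes passed the test as lower, each with every miR-497 library below every NC library, a gap that 29.6% of all tested genes also had. GW182 proteins link Argonaute to the CCR4-NOT and PAN2-PAN3 deadenylases. Tnrc6c (ENSMUSG00000025571, chr11:117654289-117763439, plus strand) was at 98.4, 85.5 and 96.2 CPM with NC and at 60.3, 73.5 and 63.8 CPM with miR-497. Its log2 fold change of -0.50 (edgeR adjusted p = 3.35e-05, SE 0.0761) was the largest among the members. Of all tested genes, 33.8% had a larger absolute log2 fold change.

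Tnrc6a (ENSMUSG00000052707, chr7:123123885-123195296, plus strand) was the most abundant GW182 gene, at 296, 306 and 340.1 CPM with NC and 247, 268 and 234 CPM with miR-497. It fell by 20.5%, with a log2 fold change of -0.33 (edgeR adjusted p = 0.000348, SE 0.0639). Both Tnrc6a and Tnrc6c stayed past the threshold under all 15 alternatives. Neither had a 7mer or 8mer match in its longest 3′ UTR, of 2345 bases for Tnrc6a and 2588 bases for Tnrc6c. Of tested genes with 3′ UTRs of like length, 41.1% (of 1915) and 44.0% (of 1795) had such a match.

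Tnrc6b (ENSMUSG00000047888, chr15:80711313-80941085, plus strand) fell the least of the 3 GW182 genes. Its levels were 165, 148 and 161 CPM with NC and 114, 146 and 138 CPM with miR-497. The highest miR-497 library, at 146 CPM, came close to the lowest NC library, at 148 CPM. The log2 fold change was -0.25 (edgeR adjusted p = 0.0100, SE 0.0747). Without miR-497 library 1, the lowest, it was -0.16 and no longer passed (edgeR adjusted p = 0.0618). Tnrc6b has 5 sites in its longest 3′ UTR, of 11609 bases. Of 41 tested genes with a 3′ UTR of like length, 87.8% had a site, and the median over the 41 was 2 sites. The shortest annotated 3′ UTR of Tnrc6b, of 532 bases, holds none of the 5 sites, and the counts do not tell which form the cells made.

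Matches in coding sequence were also located. Tnrc6a had an 8mer there, Tnrc6c had 2 matches, Tnrc6b had 2 that share bases, and Dicer1 and Ago3 had 1 each. Such matches are common: of tested genes with a coding sequence of like length, 75.6% had 1 or more for Tnrc6a and 75.7% for Tnrc6c. The windows are printed because Tnrc6a and Tnrc6c have no 7mer or 8mer match in the 3′ UTR. A match is a description of the sequence only.
Tnrc6a coding 8mer, chr7:123171357-123171384, plus strand: aagatgactcTGCTGCTAcaggaatgat
Tnrc6c coding 7mer-m8, chr11:117722801-117722828, plus strand: ctgttaacaaTGCTGCTgccaccaagag
Tnrc6c coding 7mer-m8, chr11:117753097-117753124, plus strand: acttgtctagTGCTGCTtctcccctgga

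**Figure D3:**
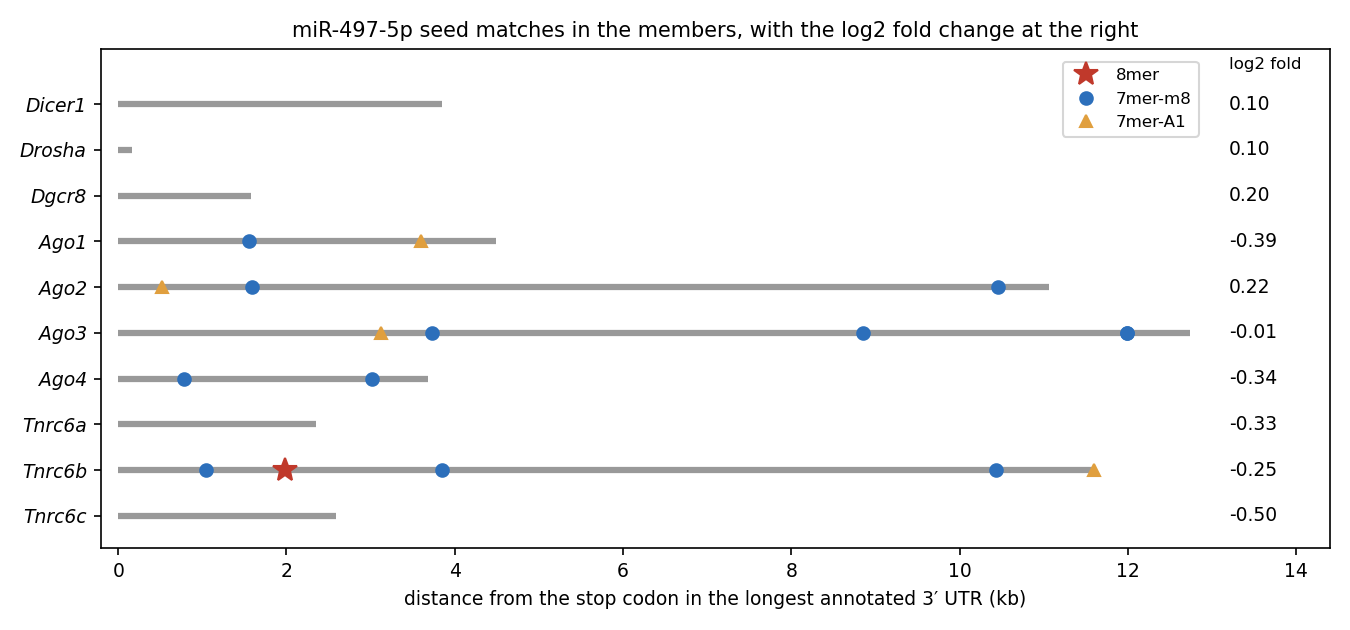
Longest annotated 3′ UTR of each member (grey bars, in kilobases from the stop codon) with matches to the miR-497-5p seed by kind (symbols) and the log2 fold change of the gene at the right. Ago1, Ago2, Ago3, Ago4 and Tnrc6b carry 2, 3, 5, 2 and 5 matches at -0.39, 0.22, -0.01, -0.34 and -0.25. Drosha, Dicer1, Dgcr8, Tnrc6a and Tnrc6c carry none, at 0.10, 0.10, 0.20, -0.33 and -0.50. An overlapping pair near the end of Ago3 appears as 1 symbol.

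Of the 5 with a 3′ UTR site, Ago1 and Tnrc6b fell, Ago2 rose, and Ago3 and Ago4 were not called. Of the 5 without, Tnrc6a and Tnrc6c fell, Dgcr8 rose, and Drosha and Dicer1 were not called. A site was present in 28.1%, and an 8mer in 4.61%, of the 12860 tested genes whose 3′ UTR is annotated. With 10 genes of such unequal 3′ UTR length, from 169 bases in Drosha to 12742 in Ago3, these counts are a description and no test.

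The summed GW182 expression was 37.9, 36.98 and 41.1 CPM per kilobase with NC and 28.9, 32.98 and 29.2 with miR-497. All 3 miR-497 sums lay below all NC sums, which follows from the same gap in each of the 3 genes. The shares within the family shifted less than in the Argonautes: Tnrc6a held 63.9% ± 2.15 and 64.7% ± 2.11, Tnrc6b 17.3% ± 0.956 and 18.4% ± 1.63, and Tnrc6c 18.8% ± 1.21 and 16.9% ± 0.576 (SD, n = 3). The ratio of Tnrc6a to Ago2 per kilobase went from 1.58 ± 0.0519 to 1.08 ± 0.0424, with no overlap between groups. Since all miR-497 values of Tnrc6a lay below NC and all of Ago2 above, the gap of this ratio follows from theirs.

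**Figure D4:**
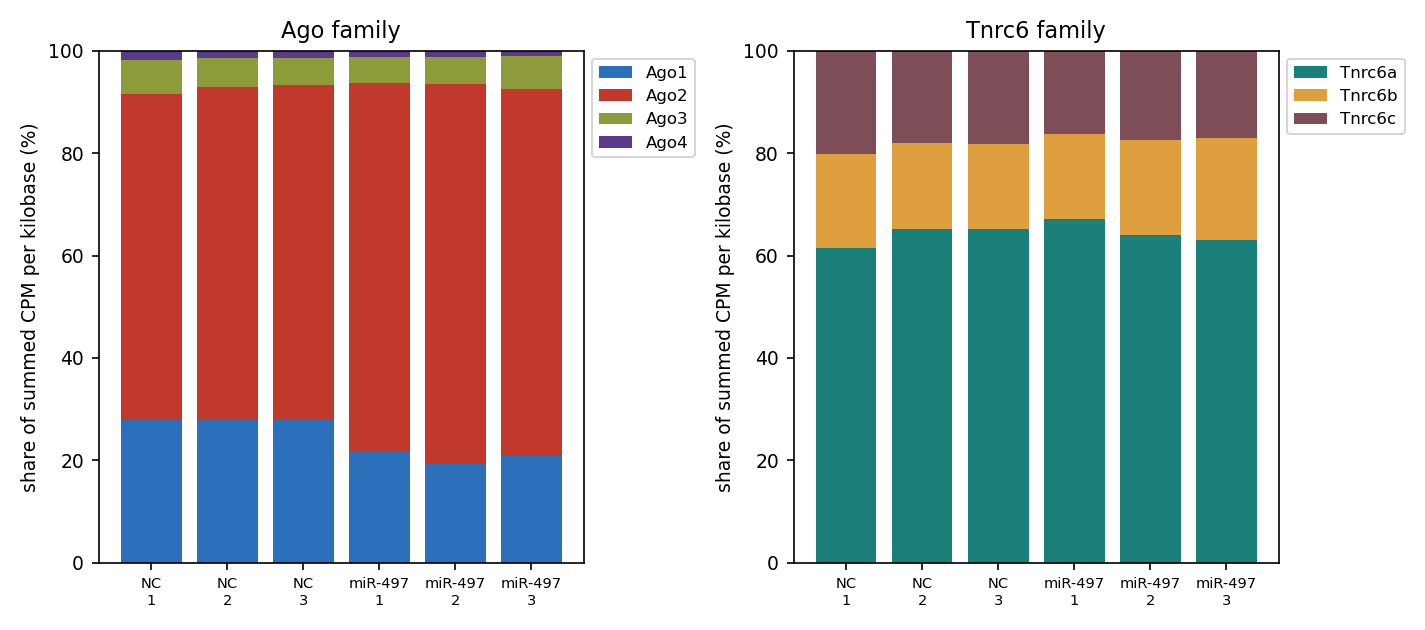
Share of each paralog in the summed CPM per kilobase of exon of its family (y axis, percent), 1 bar per library. In the Ago panel Ago1 narrows from about 27.9% to 20.6% and Ago2 widens from 64.7% to 72.7%, while the Tnrc6 panel changes less, with Tnrc6c at 18.8% and 16.9%.

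Ordered by CPM per kilobase of exon in NC libraries, Tnrc6a (24.7 ± 1.83) and Drosha (24.0 ± 1.26) led and overlapped each other. Ago2 (15.6 ± 1.03) came next and stood apart from both neighbours. Tnrc6c (7.27 ± 0.539), Ago1 (6.74 ± 0.411) and Tnrc6b (6.68 ± 0.376) overlapped, followed without overlap by Dgcr8 (4.57 ± 0.280), Dicer1 (3.27 ± 0.213), Ago3 (1.40 ± 0.178) and Ago4 (0.377 ± 0.0368). With miR-497, Drosha (25.8 ± 1.51) led alone, and Tnrc6a (19.6 ± 1.36) overlapped Ago2 (18.2 ± 1.91). Tnrc6b, Dgcr8, Ago1 and Tnrc6c then lay between 5.13 and 5.60 and overlapped. Scaling by the longest transcript kept Tnrc6a, Drosha and Ago2 as the leading 3 and Ago3 and Ago4 as the last 2 in both groups, and changed the order of the 5 between.

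Genes that work with the members were counted in 7 lists. Of 93 listed genes tested, 16 (17.2%) were higher and 38 (40.9%) lower by the same edgeR test, where the shares over all tested genes were 23.8% and 26.0%. The median log2 fold change was -0.14. Several lists hold genes whose changes were far larger than those of any member, led by Mov10, Tarbp2 and Pabpc1.

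Among 14 nuclear partners (helicases, splicing and hnRNP proteins, the export receptor Xpo5), 4 were higher and 6 lower, with a median log2 fold change of 0.01. Hnrnpa1, which binds some primary microRNA hairpins, fell from 703 ± 51.4 to 446.5 ± 17.0 CPM (SD, n = 3), by 0.66 on the log2 scale (edgeR adjusted p = 1.50e-07). Words of 50 bases shared with other genes, many of them predicted Gm genes, made up 28.2% of Hnrnpa1, so its value is uncertain. Hnrnpa2b1, a related protein, fell from 859 ± 40.3 to 678 ± 27.0 CPM (edgeR adjusted p = 9.05e-05). The cap-binding subunit Ncbp1 rose from 35.1 ± 2.02 to 45.5 ± 0.357 CPM (edgeR adjusted p = 0.000242). Mettl3, the enzyme that writes m6A on transcripts, rose from 17.3 ± 1.48 to 21.6 ± 1.10 CPM (edgeR adjusted p = 0.00882); 18.4% of its exon bases lie under Tox4 on the other strand. The export receptor Xpo5 was at 144 and 152 CPM and did not pass (edgeR adjusted p = 0.340).

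Of the 15 Dicer partners, loading factors and nucleases, 1 was higher and 6 lower, with a median of -0.14. Tarbp2, which encodes TRBP, the double-stranded RNA-binding partner of Dicer, was at 72.2, 72.3 and 65.3 CPM with NC and at 24.1, 24.99 and 21.1 CPM with miR-497. The miR-497 libraries thus held about 0.33 of the NC level, a log2 fold change of -1.58 (edgeR adjusted p = 1.02e-10, SE 0.0792). Of its 50-base words, 14.3% also occur in the predicted gene Gm18584. Mov10, an Argonaute-associated helicase that is also known as an interferon-inducible gene, was at 137, 151 and 145 CPM with NC and at 24.9, 26.7 and 21.0 CPM with miR-497. Its log2 fold change was -2.57 (edgeR adjusted p = 3.10e-13, SE 0.0795). Trim71, a ubiquitin ligase family protein known as a let-7 target that meets Argonaute, rose from 38.1 ± 2.62 to 71.5 ± 5.26 CPM (edgeR adjusted p = 3.55e-08). Neither Tarbp2, Mov10 nor Trim71 lost its call under any alternative.

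Among 9 genes of let-7 precursor control and RNA tailing, 2 were higher and 4 lower (median -0.22). The uridylyltransferases Tut7 and Tut1 fell, from 104.5 ± 1.41 to 77.5 ± 1.71 CPM and from 53.1 ± 3.42 to 35.1 ± 0.980 CPM (edgeR adjusted p = 4.27e-06 and 2.67e-06). Dis3l2, the exonuclease that removes uridylated let-7 precursors, rose from 17.2 ± 2.24 to 22.0 ± 0.920 CPM (edgeR adjusted p = 0.00689). Tent4b, a poly(A) polymerase listed under its older symbol Papd5, rose from 67.8 ± 4.57 to 84.3 ± 4.01 CPM (edgeR adjusted p = 0.000655). Lin28b, which blocks let-7 maturation, was at 45.2 and 41.9 CPM and did not pass (edgeR adjusted p = 0.249).

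The 17 tested deadenylation genes had 4 higher and 6 lower members (median 0.01). Pabpc1, the main cytoplasmic poly(A)-binding protein and a GW182 contact, was at 520.3, 545 and 539 CPM with NC and at 1714, 1574 and 1454 CPM with miR-497. The lowest miR-497 library stood far above the highest NC library, and the log2 fold change was 1.56 (edgeR adjusted p = 9.46e-12, SE 0.0644). Of its 50-base words, 9.94% occur in other genes. Cnot6l, a catalytic subunit of CCR4-NOT, fell from 126 ± 3.75 to 72.1 ± 6.74 CPM (edgeR adjusted p = 3.67e-08). Btg2, an adaptor of that complex, fell from 426.5 ± 18.1 to 245.5 ± 4.75 CPM (edgeR adjusted p = 2.62e-09). Pan2, the catalytic subunit of the other deadenylase, rose from 18.6 ± 0.622 to 23.8 ± 1.37 CPM (edgeR adjusted p = 0.00232). The scaffold Cnot1, at 195 and 204 CPM, did not pass (edgeR adjusted p = 0.450). Cnot9 is listed at 0 in all libraries. The annotation release behind the counts is not given, so this 0 was not read as absence of expression.

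Of 14 tested decapping, decay and repression genes, 3 were higher and 6 lower (median -0.02). The decapping enzyme Dcp2 fell from 198 ± 11.9 to 149 ± 9.48 CPM (edgeR adjusted p = 2.30e-05), and the exonuclease Xrn1 that follows it fell from 63.6 ± 4.68 to 50.2 ± 2.95 CPM (edgeR adjusted p = 0.000807). Edc4, the scaffold of decapping, rose from 82.1 ± 1.39 to 96.2 ± 5.00 CPM (edgeR adjusted p = 0.00325). Lsm14b, a P-body protein, rose from 41.6 ± 0.473 to 59.7 ± 1.89 CPM (edgeR adjusted p = 3.70e-06). Ddx6, the helicase that CCR4-NOT recruits, was at 351 and 338 CPM and did not pass (edgeR adjusted p = 0.493). Eif4enif1 is listed at 0 in all libraries, which was likewise not read as absence of expression.

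The list named piwi clade holds germline relatives of Argonaute (Piwil1, Piwil2 and Piwil4) and other genes of their pathway (Mael, Tdrd1 and Ddx4). It was near the limit of detection. Of the 6 listed genes 2 were tested, and Piwil4 was at 2.00 ± 0.181 and 1.19 ± 0.0309 CPM. Its log2 fold change of -0.75 passed narrowly (edgeR adjusted p = 0.0431) and lost that call under 10 of 15 alternatives, among them each fit without an NC or miR-497 library.

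**Figure D5:**
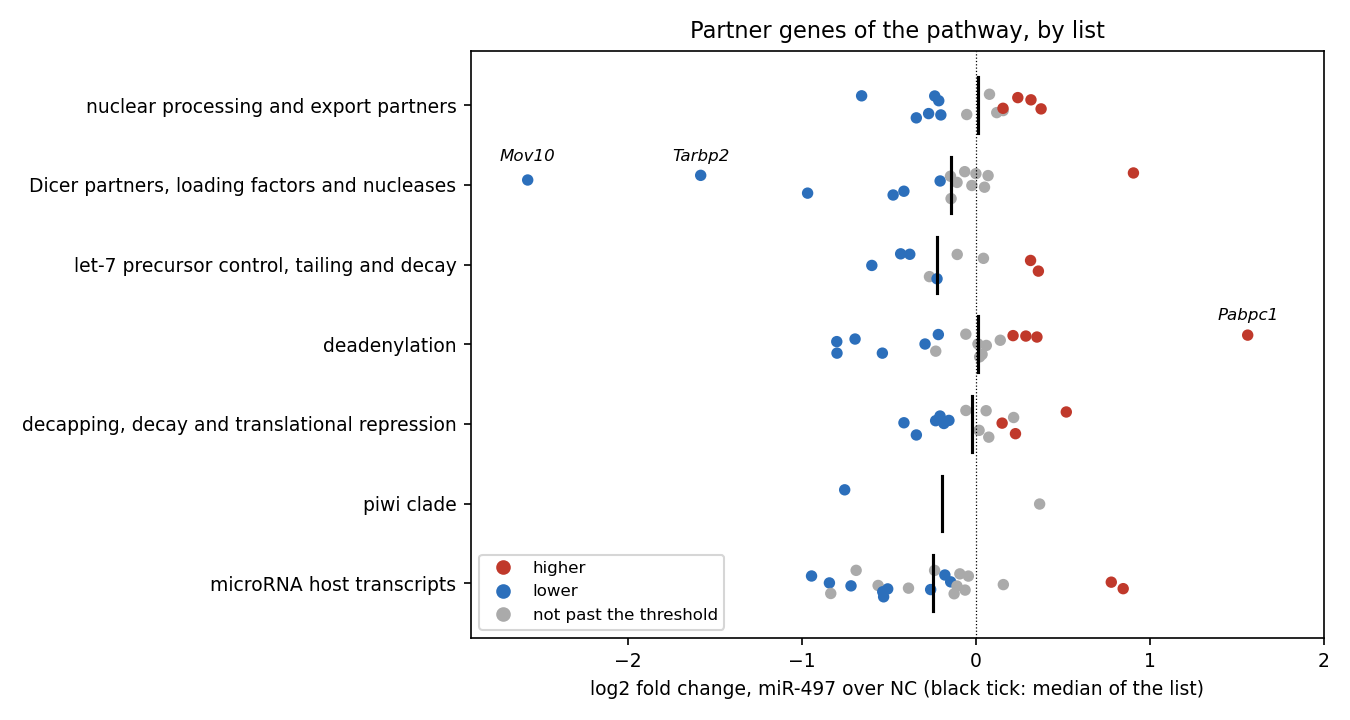
Log2 fold change, miR-497 over NC, of each tested partner gene by list (x axis), coloured by call at an edgeR adjusted p under 0.05, with a black tick at the median of each list; vertical scatter within a list has no meaning. Medians lie between -0.25 and 0.01, while Mov10 (-2.57), Tarbp2 (-1.58) and Pabpc1 (1.56) lie far from the rest.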

How the data were processed

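The authors deposited raw counts of reads per gene for 6 poly(A)-enriched libraries, without normalization. The submitters' processing notes name GRCm38, STAR 2.5.4b, featureCounts, Subread 1.6.1 and edgeR 3.32.1; the annotation release, strand setting and handling of multiply aligned reads are not given in the sources used here. Groups and replicate numbers come from the sample titles, and columns were matched by the sample descriptions.

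Symbols, gene models, 3′ UTRs and coding sequences came from GENCODE M21 (GRCm38), which matched 55141 of 55401 identifiers; microRNA sequences came from RefSeq. Genes were filtered with filterByExpr (minimum count 10, minimum total 15), scaled by TMM and tested with edgeR 4.0.16 (quasi-likelihood F-test, group as the only term, R 4.3.3), 2-sided, with Benjamini-Hochberg adjustment over 14661 genes at 0.05. CPM uses TMM-scaled library sizes. The SE is the log2 fold change divided by the square root of F. Levels between genes are compared per kilobase of the union of annotated exons. Paralogs were compared by coding-sequence identity rather than protein identity (Biopython 1.88).

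All 10 members were named. Of each partner list, up to 2 genes with the largest rise and 2 with the largest fall were named, if past the threshold and with groups that did not overlap; Xpo5, Lin28b, Cnot1, Ddx6, Dleu2 and Smc4, and genes listed at 0, were named after their values were seen. Members and lists were chosen with earlier results of these data known. Papd4 and Papd5 were matched as Tent2 and Tent4b, and Mir100hg was not matched. The fit was tested on simulated data of 14424 genes: of genes changed by 1 on the log2 scale, 96.0% (falls) and 98.0% (rises) were called, and of those changed by 0.4, 48.0% and 42.0%. In that simulation 50 genes were changed at each size and direction, whereas 49.8% of tested genes were called in the data. Its adjusted threshold was therefore stricter than that of the data. The rate at which changes of the members' size are missed is thus not known from it.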

Additional observations from a re-analysis of the deposited data

How the results depend on the processing

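The members and named partners were refitted under 15 alternatives: DESeq2 size factors, upper-quartile scaling, no filter, a mean count of at least 50, the DESeq2 1.42.0 Wald test, limma 3.58.1 voom, the replicate block, GC and length offsets, block and offsets together, and each library left out. Of 150 pairs of member and alternative, 132 kept direction and side of the threshold. The count of 4 lower members stayed within 1.5 times throughout. The count of 2 higher members became 3 with upper-quartile scaling, where Drosha was also called, and 1 with no filter. It became 1 with the replicate block (Ago2 kept, Dgcr8 lost at an edgeR adjusted p of 0.062). With block and offsets it was 0 (edgeR adjusted p of 0.0548 for Ago2 and 0.0531 for Dgcr8). Over the fits without 1 library it was 0 to 2, and the cause of these moves was not tested. Ago3 changed sign, to 0.0069 with DESeq2 size factors, 0.0363 with upper quartile, 0.0005 with the stricter filter, 0.0065 with the Wald test and -0.0752 to 0.0893 without 1 library, and Ddx6 ran from -0.1131 to 0.025 without 1 library. No scaling moved the median of all genes by more than 0.0467. Same-numbered libraries did not deviate together (correlations across genes of -0.119, -0.035 and -0.133), so the numbers were not read as pairs. The members with a miR-497-5p site went from 5 to 3 with the shortest 3′ UTR and to 1 with 8mers only. Per longest transcript, the Ago2 share was 62.7% with NC and 70.9% with miR-497, that of Ago1 29.9% and 22.2%, that of Tnrc6a 69.0% and 69.6%, and that of Tnrc6c 14.5% and 12.95%. Of 360 pairs of partner and alternative, 18 lost the call, all in Piwil4 and Mir17hg. Ago4, at 51 to 95 counts, is limited by depth.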

Other observations

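Genes that host microRNAs were counted because Drosha acts on their primary transcripts. Counts of poly(A)-enriched RNA summed over a gene do not tell primary transcripts from spliced messenger RNA. Of 22 tested hosts, 2 (9.09%) were higher and 9 (40.9%) lower, where the shares over all tested genes were 23.8% and 26.0%, with a median log2 fold change of -0.25 against -0.02 over all tested genes. H19, the precursor of miR-675, rose from 2005 ± 86.4 to 3607 ± 144 CPM (SD, n = 3), by 0.85 on the log2 scale (edgeR adjusted p = 7.74e-09). Mest, the host of miR-335, was at 1128, 1122 and 1201 CPM with NC and at 2000, 2059 and 1863 CPM with miR-497 (edgeR adjusted p = 1.55e-08), and 23.1% of its exon bases lie under Copg2 on the other strand. Egfl7, the endothelial gene that hosts miR-126, fell from 211 ± 15.1 to 109.6 ± 14.8 CPM (edgeR adjusted p = 4.54e-08). Mir17hg, the primary transcript of the miR-17 to miR-92 cluster, was at 2.47 ± 0.544 and 1.37 ± 0.519 CPM (edgeR adjusted p = 0.0423) and lost the call under 8 of 15 alternatives. Poly(A) libraries do not measure mature microRNAs, so these values speak of host transcripts only.

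Both hosts of miR-16 were lower, and this pair was chosen after their values were seen. The seed of miR-16-5p is that of miR-497a-5p. Dleu2, the host of miR-15a and Mir16-1, was at 10.0, 7.61 and 5.72 CPM with NC and at 4.62, 4.53 and 5.09 CPM with miR-497, and fell by 0.72 on the log2 scale (edgeR adjusted p = 0.00471). Smc4, the host of miR-15b and Mir16-2 and itself a condensin subunit, went from 141 to 97.7 CPM and fell by 0.53 on the log2 scale (edgeR adjusted p = 2.33e-05). Both stayed past the threshold under all 15 alternatives, Dleu2 least firmly without NC library 1 (edgeR adjusted p = 0.0418). In each gene all 3 miR-497 values lay below all 3 NC values, a gap that 29.6% of all tested genes also had. Of all tested genes, 26.0% were called lower, so this pair says nothing particular about the hosts of miR-16.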
